A study of Mus musculus with 6 samples.

Results

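The mRNAs of 10 genes that bring amino acid signals to mTORC1 at the lysosome were examined in monocytic myeloid-derived suppressor cells (M-MDSCs): the Rag GTPases Rraga, Rragc and Rragd, the Ragulator subunits Lamtor1 to Lamtor5, folliculin (Flcn) and the transporter Slc38a9. They were chosen by name from the 34745 genes of the count table, and all 10 were found. Between the mTOR-/- and the WT libraries 0 of the 10 passed edgeR's test, where 4.04% of all genes tested did. The widest differences were a 1.55-fold higher level of Slc38a9 and lower levels of Rragd, at 0.706 of WT, and Lamtor5, at 0.744 of WT, with the lowest adjusted p of any member at 0.0869 (edgeR's quasi-likelihood test). DESeq2's Wald test called 1 of the 10, Slc38a9, and 9.13% of all genes.

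WT M-MDSCs came from C57BL/6 mice, and mTOR-/- M-MDSCs came from Lyz-mTOR mice, in which Cre under control of the lysozyme gene deletes a floxed mTOR allele in myeloid cells. Bone marrow of both was cultured with GM-CSF and IL-6, the M-MDSCs were sorted, and 3 libraries per group were sequenced. The paper's methods give n = 3 beside the mice used for RNAseq, and the labels do not say whether each library is a separate mouse. The p-values therefore set the group difference against the spread between these libraries, which may be technical in part. The age of the mice is not given. WT mice were purchased as wild type, and the Lyz-Cre and mTOR flox/flox lines had another source, so that Cre and the origin of the mice cannot be told apart from the deletion.

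Rag GTPases work as dimers in which RagA or RagB pairs with RagC or RagD. Ragulator, built on the scaffold LAMTOR1, which is anchored in the lysosomal membrane by its lipid tail, holds the dimer at the lysosome, and when amino acids are plentiful the Rags recruit mTORC1 there. The folliculin complex acts on RagC and RagD, SLC38A9 reports lysosomal arginine, and the same machinery keeps the MiT/TFE transcription factors, which switch on lysosomal genes, out of the nucleus.

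Total counts per library were 12317507 to 12903191 in the mTOR-/- group and 14066578 to 14768126 in the WT group. Mtor itself had 883, 983 and 908 counts in mTOR-/- and 980, 875 and 929 counts in WT. Counts over a whole gene cannot show the loss of single exons, so mTOR-/- stands for the libraries labelled so. The paper states that it verified mTOR depletion in MDSCs, without naming these libraries. The mTOR-/- replicate 3 library stood apart: its correlation with the other libraries was 0.934 to 0.955, whereas that of all other library pairs was 0.957 to 0.981 (Pearson's r of log2 CPM across genes). Summed CPM of the monocytic markers was 1880 to 2210 in mTOR-/- and 2020 to 2250 in WT. Its largest parts were Itgam (CD11b), at 831.5 CPM in mTOR-/- and 926.9 CPM in WT, and Adgre1, at 481.8 and 614.2 CPM. Csf1r was present throughout, whereas Cx3cr1 had 0 to 4 counts per library. Ccr2 was low, at 14.2 CPM in mTOR-/- and 9.06 CPM in WT. Within that list of 9, Csf1r and Cd14 rose and Ly6c2 fell, from 174 CPM in WT to 87.3 CPM in mTOR-/-. Granulocytic markers summed to 413 to 471 CPM against 487 to 686 (Ly6g rose, Ltf and Ngp fell, of 9). Most of that sum was Ngp, at 298 CPM in mTOR-/- and 439 CPM in WT, whereas Ly6g was at 13.3 and 2.77 CPM. Dendritic markers summed to 64.6 to 67.0 against 14.9 to 38.4 (Ccr7 rose, of 6, with Siglech at 0), mostly Ccr7, at 58.7 CPM in mTOR-/- and 24.6 CPM in WT. Mast cell and basophil markers summed to 156 to 221 against 721 to 900 (Cpa3 and Mcpt8 fell, of 6). T and NK cell markers summed to at most 1.07 CPM, and Cd3e, Trbc2 and Ncr1 had no count in any library. B cell markers summed to 1.78 to 5.87 CPM and erythroid markers to at most 1.02 CPM. The part of these other cells in the differences below was not tested, and in bulk RNA fewer cells of a type cannot be told apart from less RNA per cell.

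All 10 genes were expressed in every library, with 200 to 5866 counts, and all passed the filter on low counts. FPKM, a count scaled to the length of the gene and the total of the library, allows levels of different genes to be compared. In the WT libraries the deposited FPKM placed Lamtor1 first at 59.0 ± 0.872 (SD, n = 3) and Rragc next at 50.8 ± 2.23. Flcn, Rraga, Lamtor5 and Lamtor4 followed at 33.4, 32.3, 29.98 and 27.7 FPKM, and neighbours in that run overlapped between libraries. Lamtor2 at 21.4 FPKM and Lamtor3 at 12.2 FPKM stood apart from their neighbours. Rragd at 4.67 FPKM and Slc38a9 at 3.78 FPKM were lowest and overlapped each other. In the mTOR-/- libraries that last order was turned, with Slc38a9 at 5.95 ± 0.918 FPKM above Rragd at 3.34 ± 0.763 FPKM and no overlap between them.

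The rank of Lamtor1 rests on the gene length that the authors used. The length implied by the deposited FPKM was 1429 bases for Lamtor1 and 5685 bases for Rragc, whereas the merged exons of the GENCODE M21 annotation cover 3215 and 3341 bases. With the M21 lengths Rragc led the WT libraries at 86.4 FPKM, Flcn followed at 64.1 FPKM, and Lamtor1 took rank 7 at 26.2 FPKM. Rragd and Slc38a9 were at ranks 9 and 10 in WT on both length scales. The mTOR-/- order of Slc38a9 above Rragd did not hold with M21 lengths, where Slc38a9 was at 3.17 FPKM and Rragd at 3.93 FPKM. Comparisons of a gene between libraries do not depend on its length.

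**Figure D1:**
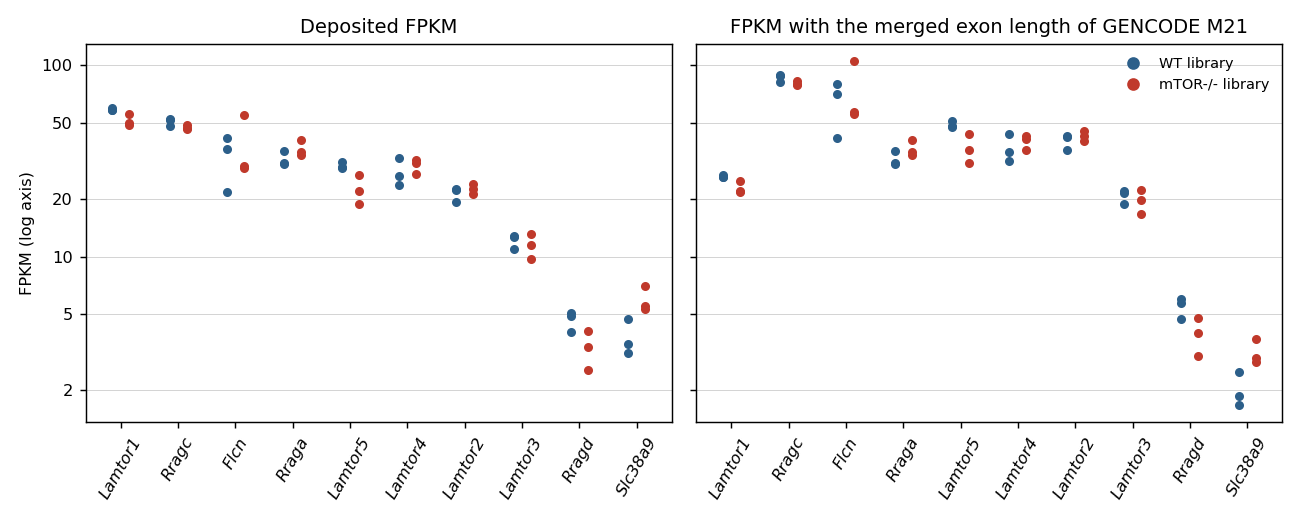
Each point is the FPKM of 1 library on a log axis, with the length behind the deposited values on the left and the merged exon length of GENCODE M21 on the right, and WT in blue and mTOR-/- in red. Lamtor1 falls from rank 1 to rank 7 in the WT libraries between the panels, and Rragd and Slc38a9 are the lowest genes in both.

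The MiT/TFE factors bind the E-box, whose letters are CACGTG on either strand. In the RefSeq promoters of GRCm38.p6, each from 250 bases before to 50 bases after a gene's start, 9 of the 10 genes were found. Lamtor3 was not among them. The promoters of Rragc, Lamtor1 and Lamtor4 held an E-box, that is 3 of 9, against 7.15% of the 32851 promoters in the table. The longer lysosomal gene motif TCACGTGA, which contains an E-box, was in 0 of 9 and in 0.974% of all promoters. The stretches with the E-box in capitals are shown because they are what sets these 3 genes apart from the other 6 in this window, and all are on the + strand. Distances are from the start in RefSeq, which lies upstream of the start in the deposited table for Rragc and Lamtor1 and is the same for Lamtor4. The E-box starts 112 bases before the RefSeq start of Rragc and 68 bases before that of Lamtor1. In Lamtor4 it starts 120 bases before, and another, left in lower case in the stretch shown, follows at 104 bases.
Rragc, chr4:123917291-123917356: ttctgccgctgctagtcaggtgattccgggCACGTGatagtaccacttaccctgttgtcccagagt
Lamtor1, chr7:101905739-101905804: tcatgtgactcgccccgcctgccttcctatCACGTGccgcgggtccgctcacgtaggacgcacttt
Lamtor4, chr5:138255332-138255397: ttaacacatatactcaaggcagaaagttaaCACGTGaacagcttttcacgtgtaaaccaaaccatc

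The 3 genes with an E-box differed little between the groups, with log2 fold changes (mTOR-/- over WT) of -0.12, -0.22 and 0.09. The genes without CACGTG in this window included Slc38a9, Lamtor5 and Rragd, the last a known target gene of the MiT/TFE factors. Whether the E-box bears on the differences was not tested.

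Differences were tested with edgeR's quasi-likelihood F test on the counts of all 12537 genes that passed the filter, with Benjamini-Hochberg adjustment over all of them. CPM here are counts scaled to the library total with TMM factors. Of the 10 genes, 0 passed an adjusted p of 0.05, against 507 of all genes (4.04%), and 0 were DEGs, which also need a fold change of at least 2, against 1.69% of all genes. At an unadjusted p under 0.05 there were 3 of 10, 1 higher and 2 lower, against 21.2% of all genes. The groups did not overlap in CPM for 3 of 10 genes, against 28.4% of all genes. Both shares lay near the background. The estimates were higher for 5 genes and lower for 5, with a median log2 fold change of -0.02, and that of all genes was 0.005. For 9 of the 10 genes the whole 95% interval lay within a fold change of 2 in either direction.

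**Figure D2:**
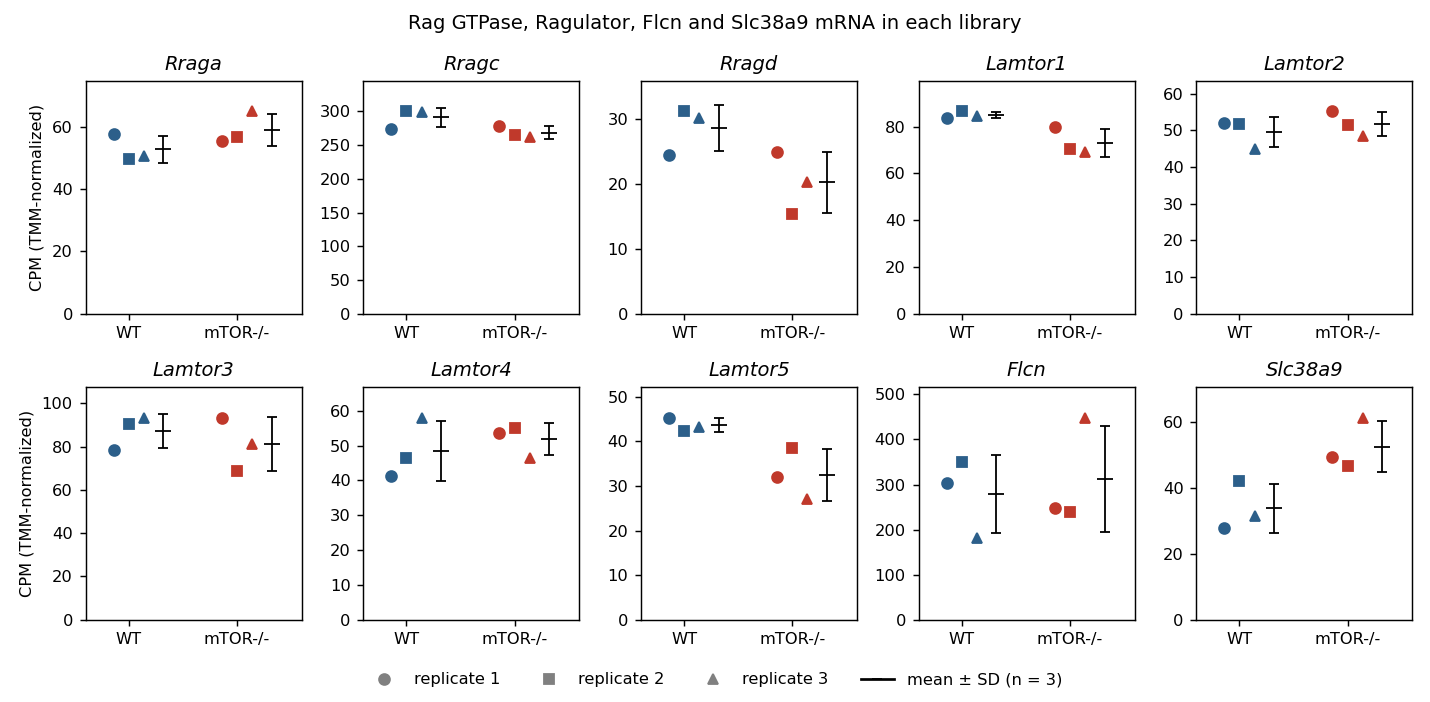
Each panel gives the TMM-normalized CPM of 1 gene from 0, with 1 symbol per library (circle, square and triangle for replicates 1, 2 and 3, WT in blue, mTOR-/- in red) and the mean ± SD of 3 libraries in black. The groups are separate for Lamtor1, Lamtor5 and Slc38a9, and the libraries of Flcn spread from 183 to 449 CPM.

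Rraga (ENSMUSG00000070934, chromosome 4, 86575668 to 86577285) encodes RagA, the GTPase that binds mTORC1 when loaded with GTP, from a single exon. It was at 55.5, 56.7 and 64.9 CPM in mTOR-/- and at 57.7, 49.6 and 50.6 CPM in WT. The groups overlapped, because WT replicate 1 lay above mTOR-/- replicates 1 and 2. The log2 fold change was 0.16 ± 0.12 (SE) at an adjusted p of 0.458 (edgeR). Its X-linked paralog Rragb, which encodes RagB and is no member of the set, had only 0 to 9 counts in any library and was not tested. No Rragb transcript aligned to Rraga over at least 150 bases at 90% identity.

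Rragc (ENSMUSG00000028646, chromosome 4, 123917446 to 123936997) and Rragd (ENSMUSG00000028278, chromosome 4, 32983037 to 33022180) encode the other partner of the dimer, which must be bound to GDP for mTORC1 to be recruited. Rragc had the narrowest range of the 10 genes over the 6 libraries, taken as the highest over the lowest CPM. It was at 279, 264 and 262 CPM in mTOR-/- and at 274, 300 and 299 CPM in WT. Its groups overlapped through mTOR-/- replicate 1, and the log2 fold change was -0.12 ± 0.09 (SE) at an adjusted p of 0.465 (edgeR). Rragd, itself a known target gene of the MiT/TFE factors, was at 24.9, 15.4 and 20.3 CPM in mTOR-/- and at 24.5, 31.2 and 30.2 CPM in WT. Only mTOR-/- replicate 1 reached the WT range, and it did so at the level of the lowest WT library. On the log2 scale Rragd differed by -0.50 ± 0.20 (SE, 95% interval -0.94 to -0.06), which did not pass the adjustment (adjusted p = 0.184, edgeR).
Within each library, FPKM of Rragd was 8.36%, 5.46% and 7.27% of that of Rragc in mTOR-/-. The share in WT was 8.36%, 9.72% and 9.45%, so that the groups met at 8.36%. Rragc was the more abundant of the pair in every library, with the deposited and with the M21 lengths.

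Lamtor1 (ENSMUSG00000030842, chromosome 7, 101905904 to 101926675) encodes the scaffold that wraps the other Ragulator subunits. It was at 79.95, 70.5 and 68.9 CPM in mTOR-/- and at 83.8, 86.5 and 84.6 CPM in WT. Every mTOR-/- library lay below every WT library, yet the difference was small, at -0.22 ± 0.10 (SE) on the log2 scale and an adjusted p of 0.256 (edgeR). Its exons share 600 bases with those of Lrrc51 on the opposite strand, which had 35 to 47 counts per library against 901 to 1266 for Lamtor1. The strand setting of the counting is not stated, so reads of this stretch cannot be assigned to either gene. Transcripts of Mmp14, Npc2, Wdr33 and Pigv also matched Lamtor1 over 150 to 161 bases at 90.1% to 92.2% identity.

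LAMTOR2 and LAMTOR3 form a dimer of roadblock fold within Ragulator. Lamtor2 (ENSMUSG00000028062, chromosome 3, 88549819 to 88553074) was at 55.2, 51.6 and 48.5 CPM in mTOR-/- and at 52.0, 51.8 and 44.8 CPM in WT. Lamtor3 (ENSMUSG00000091512, chromosome 3, 137918506 to 137928900) was at 93.4, 68.9 and 81.2 CPM in mTOR-/- and at 78.3, 90.6 and 93.1 CPM in WT. Both genes overlapped between the groups, and their log2 fold changes were 0.06 and -0.11 (adjusted p = 0.800 and 0.690, edgeR).

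LAMTOR4 and LAMTOR5 form the other dimer of this fold. Lamtor4 (ENSMUSG00000050552, chromosome 5, 138255482 to 138259398) was at 53.7, 55.0 and 46.5 CPM in mTOR-/- and at 41.2, 46.4 and 58.0 CPM in WT, with a log2 fold change of 0.09 (adjusted p = 0.767, edgeR). The lowest and the highest of these values were both WT. Lamtor5 (ENSMUSG00000087260, chromosome 3, 107278858 to 107284082) was at 31.9, 38.4 and 27.0 CPM in mTOR-/- and at 45.3, 42.4 and 43.2 CPM in WT. All mTOR-/- libraries lay below all WT libraries. On the log2 scale it differed by -0.43 ± 0.15 (SE, 95% interval -0.76 to -0.09), and the adjusted p of 0.148 (edgeR) missed the threshold.
FPKM of Lamtor5 was 71.6%, 84.1% and 69.9% of that of Lamtor4 in mTOR-/- and 132%, 110% and 89.6% in WT, without overlap. FPKM of Lamtor2 was 183%, 232% and 185% of that of Lamtor3 in mTOR-/- and 206%, 177% and 149% in WT, with overlap. The ratios within these dimers and between the Rags were chosen after the values had been seen and were not tested. Each scales with the lengths behind the deposited FPKM, by the same factor in every library, so that the order of the libraries does not depend on them, but whether Lamtor5 or Lamtor4 was the more abundant does in mTOR-/- replicate 2 and WT replicate 3. With M21 lengths Lamtor5 was at 43.86 FPKM and Lamtor4 at 42.64 FPKM in the former, and at 48.11 and 43.93 FPKM in the latter. In mTOR-/- replicate 3, the library that stood apart, 4 of the 5 Ragulator genes, all but Lamtor3, were at their lowest within the group. Over all 10 genes this library was the lowest of its group for 5 and the highest for 3. Among the WT libraries replicate 1 held the lowest value for 3 of the 5, and over all 10 genes the lowest for 6 and the highest for 3. The same shares over all genes tested were not computed. Without mTOR-/- replicate 3 the log2 fold changes of Lamtor1 and Lamtor5 were -0.18 and -0.32. Over the 6 fits without 1 library they ranged from -0.288 to -0.182 in Lamtor1 and from -0.575 to -0.315 in Lamtor5. Processed pseudogenes match Lamtor5 (Gm15190, 276 bases at 97.8% identity, and Gm13537, 228 bases at 96.1%) and Lamtor4 (Gm15129, 276 bases at 91.3%), so some of these reads could have been placed elsewhere or dropped.

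Flcn (ENSMUSG00000032633, chromosome 11, 59791408 to 59810016) encodes folliculin, which with FNIP1 or FNIP2 stimulates GTP hydrolysis by RagC and RagD. It was at 249, 239 and 449 CPM in mTOR-/- and at 304, 350 and 183 CPM in WT. The highest library was mTOR-/- and the lowest was WT, but the other mTOR-/- libraries lay below the other WT libraries. The log2 fold change was 0.16 with a standard error of 0.28 (adjusted p = 0.785, edgeR), the widest error of the 10 genes. It became -0.20 without mTOR-/- replicate 3 and -0.07 without WT replicate 3. Within groups the coefficient of variation of Flcn was 37.9% in mTOR-/- and 31.0% in WT, above that of 93.6% and 94.4% of the 10619 genes whose mean reached 50 counts. Over the 10 genes the median coefficient of variation was 11.9% and 8.74%, close to the 13.5% and 8.76% of those genes. These values rest on 2563 to 5866 counts of Flcn per library.

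Slc38a9 (ENSMUSG00000047789, chromosome 13, 112660766 to 112738743) encodes the lysosomal membrane protein that senses arginine and lets other amino acids leave the lysosome. It was at 49.6, 46.8 and 61.5 CPM in mTOR-/- and at 27.9, 42.3 and 31.7 CPM in WT. All mTOR-/- libraries lay above all WT libraries, with WT replicate 2 closest. On the log2 scale the difference was 0.63 ± 0.18 (SE, 95% interval 0.23 to 1.03), the widest of the 10, and the adjusted p was 0.0869 (edgeR). DESeq2's Wald test gave 0.63 with an adjusted p of 0.0216, and Slc38a9 was the only member it called. Without 1 library at a time the log2 fold change was 0.50 (without mTOR-/- replicate 3) to 0.82 (without WT replicate 2), with adjusted p of 0.0628 to 0.296 (edgeR). The antisense gene Gm47827 shares 182 exon bases with Slc38a9 on the opposite strand and is not among the 34745 genes with counts, so it could not be analysed. As the strand setting of the counting is not stated, reads of this stretch cannot be assigned to either gene. The genes whose log2 CPM followed Slc38a9 most closely over the 6 libraries were Gm27003, Krit1 and Xlr4a, with Pearson's r of 0.999, 0.996 and 0.996. This is a description over 6 libraries of 2 groups, and 142 genes had an r over 0.95.

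**Figure D3:**
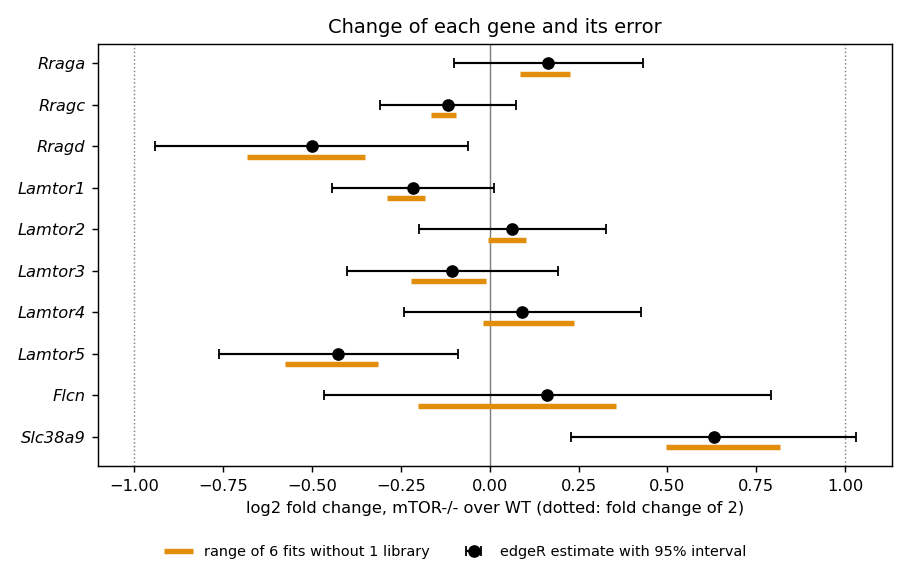
Black points are log2 fold changes (mTOR-/- over WT) from edgeR with their 95% intervals, orange bars the range over the 6 fits that each left out 1 library, and dotted lines a fold change of 2. The intervals of Rragd, Lamtor5 and Slc38a9 exclude 0 before adjustment over all genes, and only that of Slc38a9 crosses a fold change of 2.

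Around these genes, 82 further genes of the pathway were found in 11 lists by role, and 80 were tested. Of the 80, 1 rose and 2 fell at an adjusted p under 0.05 (edgeR), against 4.04% of all genes in either direction. DESeq2 called 13 of the 80, against 9.13% of all genes. Medians of the lists lay between -0.27 and 0.16 on the log2 scale, and that of all genes tested was 0.005.
Among other partners of the Rags and folliculin, 0 of 3 passed the test, and the lowest p was that of Fnip2, a partner of folliculin, at 296 CPM in mTOR-/- and 349 CPM in WT (log2 fold change -0.24, adjusted p = 0.201, edgeR). In GATOR1, which switches RagA off, 0 of 3 passed (Nprl2, log2 fold change 0.20, adjusted p = 0.490, edgeR). In GATOR2, which opposes GATOR1, 0 of 5 passed (Wdr24, log2 fold change 0.37, adjusted p = 0.169, edgeR). In KICSTOR, which brings GATOR1 to the lysosome, 0 of 3 passed.
Of 7 amino acid sensors 0 passed, with the lowest p for Lars, the leucyl-tRNA synthetase (log2 fold change 0.37, adjusted p = 0.0677, edgeR). Of 12 amino acid transporters 1 rose, Slc15a3, a lysosomal carrier of histidine and small peptides, from 17.2 CPM in WT to 35.04 CPM in mTOR-/- (log2 fold change 1.02, adjusted p = 0.0399, edgeR). It lost the call in each of the 6 fits without 1 library (adjusted p = 0.0578 to 0.104, edgeR).

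In BORC, which binds Ragulator and positions lysosomes, 0 of 8 passed (Borcs8, log2 fold change 0.61, adjusted p = 0.133, edgeR). Of 9 genes of mTORC1 and TSC 0 passed, and Deptor, an inhibitor bound to mTOR, had the lowest p (log2 fold change 0.78, adjusted p = 0.0776, edgeR). Mtor had a log2 fold change of 0.15 (adjusted p = 0.442, edgeR). For the MiT/TFE factors 0 of 4 passed, with the lowest p for Mitf (log2 fold change -0.29, adjusted p = 0.263, edgeR).
Of 10 target genes of these factors 1 fell, Gpnmb, a glycoprotein of lysosomes, from 9362 CPM in WT to 5775 CPM in mTOR-/- (log2 fold change -0.70, adjusted p = 0.0383, edgeR). The estimate was lower for 8 of the 10 and higher for 2, with a median of -0.27, where 50.6% of all genes tested were higher. The groups did not overlap for 6 of these 10 genes, against 28.4% of all genes. Of 16 subunits of the V-ATPase, the proton pump that contacts Ragulator, 1 fell, Atp6v1e1, from 221 CPM in WT to 140 CPM in mTOR-/- (log2 fold change -0.66, adjusted p = 0.0109, edgeR). The estimate was lower for 12 of the 16 and higher for 4, with a median of -0.25, where 50.6% of all genes tested were higher. The groups did not overlap for 9 of the 16, against 28.4% of all genes. Gpnmb lost the call in 4 of the 6 fits without 1 library, namely those without mTOR-/- replicate 1 or without any of the 3 WT libraries (adjusted p up to 0.156, edgeR). Atp6v1e1 lost it without WT replicate 2 and without WT replicate 3 (adjusted p = 0.0567 and 0.0638, edgeR).

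**Figure D4:**
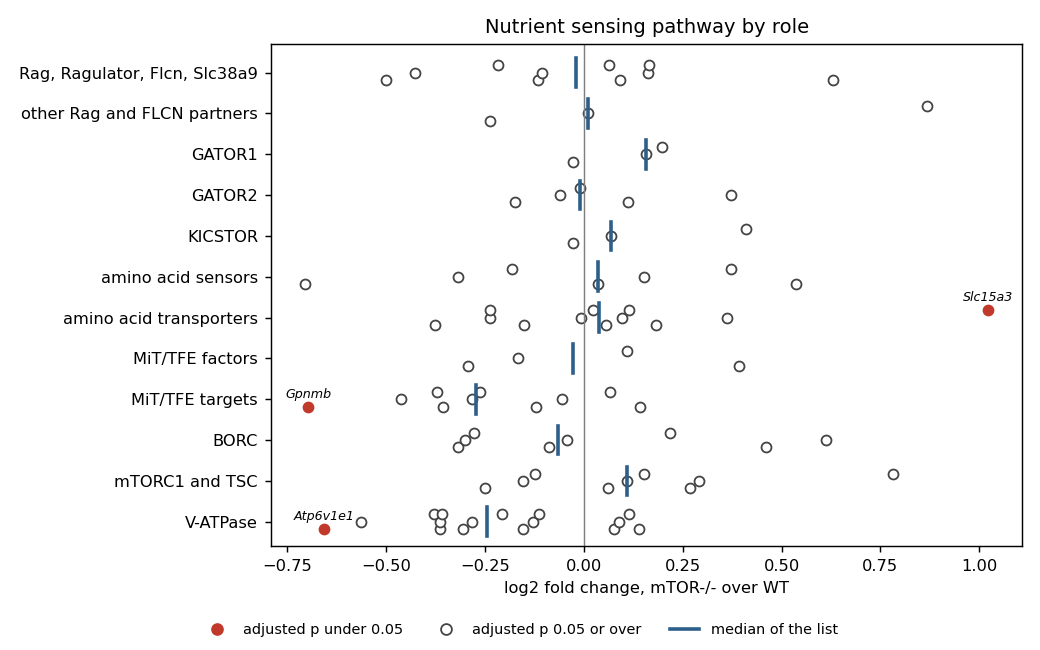
Each point is the log2 fold change (mTOR-/- over WT) of 1 gene, filled where the adjusted p was under 0.05, with lists by role in rows and the median of each list as a blue bar. The 10 genes of the top row centre near 0, as do most lists, and the medians of the MiT/TFE targets and the V-ATPase lie at -0.27 and -0.25.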

How the data were processed

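RNAseq of 3 WT and 3 mTOR-/- M-MDSC libraries was analysed from 1 table of the series. The authors deposited whole-number read counts per gene and FPKM. The paper's methods name Bowtie2, mm10 and HTSeq, whereas the submitters' processing notes list HISAT2 2.0.4, StringTie 1.3.0, GRCm38.p4 and mm9, and strand setting and annotation release are not given in the sources used here. The deposited FPKM equal the counts divided by gene length and library total, within a relative difference of 2e-04. The other tables hold 24 columns with the same headers, whose values were not compared, and the authors' own comparison (group means, log2 ratios, p and q-values). They were not used.

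Counts were analysed with R 4.3.3 and edgeR 4.0.16. The filter filterByExpr (minimum count 10, minimum total 15) left 12537 of 34745 genes, TMM factors were 0.986 to 1.01, and the biological coefficient of variation was 19%. The comparison used the quasi-likelihood F test of edgeR without a block, and the thresholds are those of the paper's methods. Those methods name DESeq2, not edgeR, for normalizing the counts. Log2 CPM used a prior count of 2. Alternatives were DESeq2 1.42.0, RLE and upper-quartile factors, other filters, each library left out in turn, the replicate block, and, chosen after seeing the data, the exon lengths of GENCODE M21. In that annotation (GRCm38) 9 of 10 genes had the deposited start and end. Transcripts were aligned with megablast at 90% identity over at least 150 bases. The members and lists were chosen with earlier results of these data known. Named are all members, Mtor and, per list, the genes past the threshold (up to 4) or else the gene with the lowest p, and 1 gene that this rule names is not reported here. Of the lists, Kics2 had no match by name.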

Additional observations from a re-analysis of the deposited data

How the results depend on the processing

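The number of the 10 genes with an adjusted p under 0.05 was 0 with edgeR under every scaling, filter, left-out library and the replicate block, and 1 (Slc38a9) with DESeq2. For the 80 tested genes of the pathway lists it was 3 with edgeR and its other scalings and filters, 13 with DESeq2 (4 MiT/TFE targets and 5 V-ATPase genes, all lower), 0 to 3 without 1 library at a time, and 1 with the replicate block. No effect shared by libraries of the same replicate number was seen (correlations of same-numbered deviations -0.076, -0.025 and -0.061). No mTOR-/- library correlated best with its own number. With 3 libraries per group this cannot exclude that they were handled in pairs. No member was a DEG under any alternative. Of 120 log2 fold changes of the 10 genes under 12 alternatives, 115 kept their direction and their side of the threshold, 1 passed it (Slc38a9, DESeq2) and 4 turned in sign. These were Flcn at -0.201 and -0.07 (without mTOR-/- or WT replicate 3), Lamtor4 at -0.02 (without WT replicate 1) and Lamtor2 at -0.005 (without WT replicate 3). Over the 6 fits without 1 library they ranged to 0.356 in Flcn, 0.238 in Lamtor4 and 0.102 in Lamtor2. The cause was not tested. Each value of the 10 genes rests on at least 200 counts, and a p that misses the threshold does not show that the groups were alike.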

Other observations

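Both chains of the leucine carrier at the cell surface had a lower mean CPM in mTOR-/- M-MDSCs, each without overlap between the groups and each short of the threshold. The groups did not overlap for 4 of the 12 amino acid transporters, against 28.4% of all genes, and the estimate was higher for 7 of the 12. The chains were named after their values were seen. Slc7a5, the light chain, was at 310 CPM in mTOR-/- and 402 CPM in WT (log2 fold change -0.38, adjusted p = 0.144, edgeR's quasi-likelihood test), and Slc3a2, the heavy chain, was at 674 and 795 CPM (log2 fold change -0.24, adjusted p = 0.223, edgeR). The glutamine carrier Slc1a5 was at 238 CPM in mTOR-/- and 185 CPM in WT, with overlap (log2 fold change 0.36, adjusted p = 0.212, edgeR).

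The gene lengths behind the deposited FPKM differed from the merged exons of GENCODE M21 for 9 of the 10 genes, shorter in some (1429 against 3215 bases in Lamtor1) and longer in others (7110 against 4151 bases in Lamtor3). Only the single-exon gene Rraga had the same length, 1618 bases, in both.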
